A study of Mus musculus with 6 samples.

Results

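The smooth muscle contractile proteins were followed through 10 genes, *Tagln*, *Cnn1*, *Myh11*, *Actg2*, *Smtn*, *Lmod1*, *Des*, *Myl9*, *Tpm1* and *Cald1*. They were chosen by gene symbol, and all 10 were found among the 25140 genes of the count table and among the 14334 genes that passed the filter on low counts. RNA came from primary cardiac fibroblasts of adult C57BL/6 mouse hearts at passage 1, as the labels give them. The study's methods also name cardiac fibroblasts for the RNA-seq, whereas its results text speaks of mouse embryonic fibroblasts. Cells of both groups were grown in 10% FBS. Per the labels, they were held in 1% FBS for 16 h before treatment and stayed in 1% FBS during it. The study's methods state 24 h in 1% FBS beforehand. The TGFβ group (3 libraries) was then exposed to 10 ng/mL TGFβ for 24 h, and the vehicle group (3 libraries) went through the same schedule without it. No transgene or deletion is given for either group. The methods call the libraries of a group biological replicates, and neither they nor the labels say whether these came from separate animals or cultures, so p-values measure the spread between these samples only.

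Smooth muscle contracts when myosin thick filaments pull on actin thin filaments. A rise in calcium turns on myosin light chain kinase, which phosphorylates the regulatory light chain, and myosin phosphatase reverses the step. Tropomyosin, caldesmon and calponin sit on the thin filament, transgelin and smoothelin bind actin, leiomodin nucleates actin filaments, and desmin forms the intermediate filaments. Fibroblasts exposed to TGFβ take up part of this set, with α-smooth muscle actin (*Acta2*) as the usual marker of the myofibroblast. Many of these genes are known targets of SRF, which binds CArG boxes with its cofactors myocardin and the MRTFs. TEAD factors bind MCAT elements, and SMAD proteins carry the TGFβ signal to SMAD boxes.

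The stretches of promoter below are shown because they hold the letters of a CArG box or of an MCAT element upstream of a member's start, outside annotated exons. They come from RefSeq promoter windows on GRCm38.p6 that run from 250 bases before to 50 bases after the transcription start, read 5′ to 3′ on the strand of the gene. The *Smtn* stretch lies inside the whole gene as positioned further below, upstream of a start within it. The capitals mark the matched letters, a CArG box in *Myl9* and an MCAT element (CATTCC or its reverse complement GGAATG) in the others.
Myl9 (chr2:156775278-156775337, + strand): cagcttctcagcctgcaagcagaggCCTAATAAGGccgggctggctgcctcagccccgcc
Lmod1 (chr1:135324658-135324713, + strand): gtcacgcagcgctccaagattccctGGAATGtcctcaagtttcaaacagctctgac
Cald1 (chr6:34598326-34598381, + strand): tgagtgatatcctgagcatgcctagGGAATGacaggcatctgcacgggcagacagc
Smtn (chr11:3539484-3539539, - strand): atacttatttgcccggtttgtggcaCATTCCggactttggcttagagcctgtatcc

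Windows were found for 7 of the 10 members, with a pair of windows for *Cald1*, and none was matched for *Tagln*, *Myh11* or *Actg2*. Both strands were searched. A CArG box occurred in 1 of the 7 members, *Myl9*, centred 156 bases before the start, against 1.63% of all 32851 windows. MCAT letters occurred in 4 of the 7, *Lmod1*, *Cald1*, *Smtn* and *Tpm1*, against 14.7% of all windows. The SMAD box letters CAGAC occurred in 4 of the 7, *Des*, *Cald1*, *Cnn1* and *Smtn*, against 49.6% of all windows. Those of *Des*, *Cnn1* and *Smtn* were centred 20, 29 and 34 bases after the start. *Cald1* had matches 128 bases before and 18 bases after the start of window 1, and 28 and 47 bases after that of window 2. Its match before the start lies in the stretch printed above, where it is not in capitals. All of these are matches of letters in a short window, and the MCAT and SMAD box motifs are short enough to be frequent. Members are counted as genes and the background as windows, so *Cald1*, with its pair, had more chances of a match.

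The libraries held 27851677 to 31072338 counts, with 0.660% to 0.789% of counts on mitochondrial genes. The vehicle libraries are called A, B and C and the TGFβ libraries D, E and F, in the order of the table; the letters are names only, since the columns carry no replicate number. Counts of the members ran from 163 for *Des* in library E to 54278 for *Cald1* in library D. All 10 members are protein-coding genes, and their positions below are the whole genes on GRCm38. Levels are given below as CPM, which are counts divided by library size after TMM correction, a level within a gene that is not comparable between genes of different length. In bulk RNA, fewer cells of a type and less RNA per cell cannot be told apart.

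With TGFβ, 8 of the 10 members were higher than with vehicle, none was lower, and *Myh11* and *Des* did not pass the test (edgeR quasi-likelihood test, adjusted p under 0.05 over all genes tested). DESeq2, limma-voom and an unadjusted p under 0.05 also gave 8 higher and 0 lower. Of all 14334 genes, 20.5% were called higher, 20.1% lower and 40.7% in either direction. The median log2 fold change of the members was 0.66, and that of all genes tested was -0.0013. In 7 members the groups did not overlap, a pattern of higher levels shown by 27.2% of all genes tested. *Cnn1* had the largest fold change of the 10, and *Tagln*, *Tpm1*, *Actg2* and *Myl9* rose 1.70-fold to 1.97-fold. *Cald1*, *Lmod1* and *Smtn* rose less, by 1.36-fold, 1.48-fold and 1.22-fold.

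**Figure D1:**
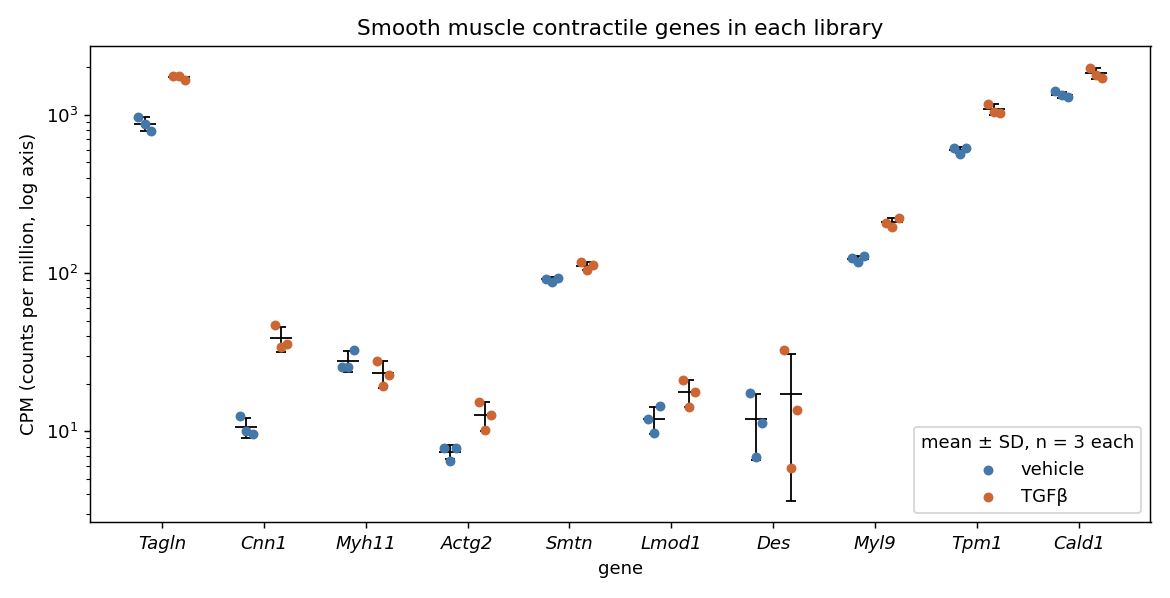
Level of each member in every library, as CPM on 1 log axis for all genes; points are the 3 vehicle (blue) and the 3 TGFβ (orange) libraries, with the group mean and SD in black. The groups are apart in 7 members and overlap in *Myh11*, *Lmod1* and *Des*.

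Among the proteins of the thin filament, *Cnn1* (ENSMUSG00000001349, chr9:22099216-22109630, + strand) encodes calponin 1, an actin-binding inhibitor of the myosin ATPase and a marker of differentiated smooth muscle. It was at 12.4, 9.98 and 9.55 CPM in libraries A, B and C and at 46.6, 34.0 and 35.3 CPM in D, E and F. The TGFβ libraries all lay far above the vehicle libraries, and D stood above E and F. The means were 10.6 ± 1.54 and 38.7 ± 6.95 CPM (SD, n = 3), a 3.62-fold rise with a log2 fold change of 1.86 (SE 0.15, 95% interval 1.52 to 2.20, edgeR adjusted p = 7.46e-05). The lower end of that interval lay above the upper end of the interval of each other member that passed the test.

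*Tagln* (ENSMUSG00000032085, chr9:45929619-45936058, - strand) encodes transgelin (SM22α), an actin cross-linking protein of smooth muscle. Its level was 962, 879 and 789 CPM with vehicle and 1757, 1744 and 1665 CPM with TGFβ, with means of 876 ± 86.6 and 1722 ± 49.9 CPM (SD, n = 3). The groups were well apart and the 3 TGFβ libraries were close together. Its log2 fold change reached 0.97 (SE 0.08, interval 0.80 to 1.15, edgeR adjusted p = 6.87e-05), a 1.97-fold rise. *Tagln* shares sequence with an antisense gene. Of all 75-base windows along its longest transcript, 40.9% also occurred in another gene's transcripts, and 38.7% occurred in those of the antisense gene *Gm48529*. That gene was counted 446 times over the 6 libraries, 0.199% of the counts of *Tagln*, and *Pcsk7*, which overlaps *Tagln* on the opposite strand, had 2.11% of them. Such windows made up 9.54% of *Smtn* and 5.01% of *Des*, shared with antisense genes of 6 and 0 counts, and 0% of each other member; the strand setting of the counting was not given in the sources used here.

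*Tpm1* (ENSMUSG00000032366, chr9:67022590-67049406, - strand) encodes tropomyosin 1, which lies along the actin filament and exists in muscle and non-muscle isoforms. The vehicle libraries held 613, 568 and 613 CPM and the TGFβ libraries 1176, 1041 and 1031 CPM. The means of 598 ± 26.1 and 1083 ± 81.0 CPM (SD, n = 3) differed by a log2 fold change of 0.86 (SE 0.07, interval 0.70 to 1.01, edgeR adjusted p = 6.61e-05). The groups did not overlap, and the increase was 1.81-fold.

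*Cald1* (ENSMUSG00000029761, chr6:34598500-34775473, + strand) encodes caldesmon, which binds actin, tropomyosin and myosin and is made as a heavy form in smooth muscle and a light form in other cells. It was at 1403, 1323 and 1291 CPM with vehicle and at 1984, 1778 and 1717 CPM with TGFβ. Its means rose from 1339 ± 57.3 to 1826 ± 139.98 CPM (SD, n = 3), a log2 fold change of 0.45 (SE 0.07, interval 0.29 to 0.61, edgeR adjusted p = 0.00158). The groups were apart, with library D again the highest. The counts are sums over each gene, so the forms of *Cald1*, *Tpm1* and *Smtn* that muscle and non-muscle cells make could not be separated.

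*Smtn* (ENSMUSG00000020439, chr11:3517523-3540612, - strand) encodes smoothelin, an actin-binding protein of contractile smooth muscle. It had 92.2, 87.4 and 93.4 CPM with vehicle and 117, 104 and 113 CPM with TGFβ, groups that lay close together without overlap. On the log2 scale the fold change was 0.29 (SE 0.05, interval 0.16 to 0.41, edgeR adjusted p = 0.00395), the smallest of the members that passed the test.

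*Lmod1* (ENSMUSG00000048096, chr1:135324807-135368065, + strand) encodes leiomodin 1, which nucleates actin filaments in smooth muscle. Its levels were 11.9, 9.68 and 14.3 CPM in the vehicle libraries and 21.1, 14.3 and 17.8 CPM in the TGFβ libraries. Vehicle library C and TGFβ library E were at nearly the same level, so the groups overlapped. The log2 fold change of 0.56 (SE 0.17, interval 0.16 to 0.97) passed the threshold with an edgeR adjusted p of 0.0336. The call was lost in 4 of 6 fits that left out a library, with adjusted p-values of 0.0807 without A, 0.0947 without B, 0.119 without D and 0.0712 without F. In those 4 fits the log2 fold change lay between 0.42 and 0.56.

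The actin of the set is *Actg2* (ENSMUSG00000059430, chr6:83512905-83536265, - strand), the enteric smooth muscle γ-actin, found mainly in the gut and other visceral muscle. It was at 7.86, 6.51 and 7.88 CPM with vehicle and 15.3, 10.1 and 12.6 CPM with TGFβ, with means of 7.41 ± 0.785 and 12.7 ± 2.59 CPM (SD, n = 3). Every TGFβ library lay above the vehicle libraries. The log2 fold change was 0.77 (SE 0.16, interval 0.41 to 1.13, edgeR adjusted p = 0.00578). *Acta2*, the vascular smooth muscle α-actin, was far more abundant and was no member. It went from 1333 ± 143.6 to 2717 ± 74.0 CPM (SD, n = 3), with a log2 fold change of 1.03 (SE 0.08, edgeR adjusted p = 6.93e-05).

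Both myosin genes are subunits of the smooth muscle thick filament, and they behaved differently in the test. *Myl9* (ENSMUSG00000067818, chr2:156775420-156781658, + strand) encodes a regulatory light chain of smooth muscle myosin. It was at 124, 117 and 127 CPM with vehicle and at 208, 194 and 223 CPM with TGFβ, without overlap and with a small spread in each group. The log2 fold change was 0.77 (SE 0.06, interval 0.63 to 0.90, edgeR adjusted p = 6.93e-05), a 1.70-fold rise. *Myl9* is also the member whose promoter window held the CArG box printed above.

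*Myh11* (ENSMUSG00000018830, chr16:14194535-14291372, - strand) encodes the smooth muscle myosin heavy chain, among the most specific markers of mature smooth muscle. Its level was 25.5, 25.3 and 32.7 CPM with vehicle and 27.96, 19.3 and 22.5 CPM with TGFβ. The groups overlapped: library D lay above A and B, and only E and F lay below all vehicle libraries. Its log2 fold change was -0.26 (SE 0.15, interval -0.61 to 0.09, edgeR adjusted p = 0.205). The upper end of the interval lay below the lower ends of the intervals of the 8 members that rose.

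*Des* (ENSMUSG00000026208, chr1:75360329-75368579, + strand) encodes desmin, the intermediate filament protein of muscle, which pericytes and some fibroblasts also make. Its 6 libraries read 17.5, 6.88 and 11.3 CPM with vehicle and 32.4, 5.84 and 13.6 CPM with TGFβ. The spread within groups was the widest of the 10, with coefficients of variation of 44.8% and 78.9%, and library D alone lay above the vehicle libraries while E was the lowest of all 6. A log2 fold change of 0.53 was fitted (SE 0.57, interval -0.79 to 1.85, edgeR adjusted p = 0.493), and without library D it was -0.29.

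**Figure D2:**
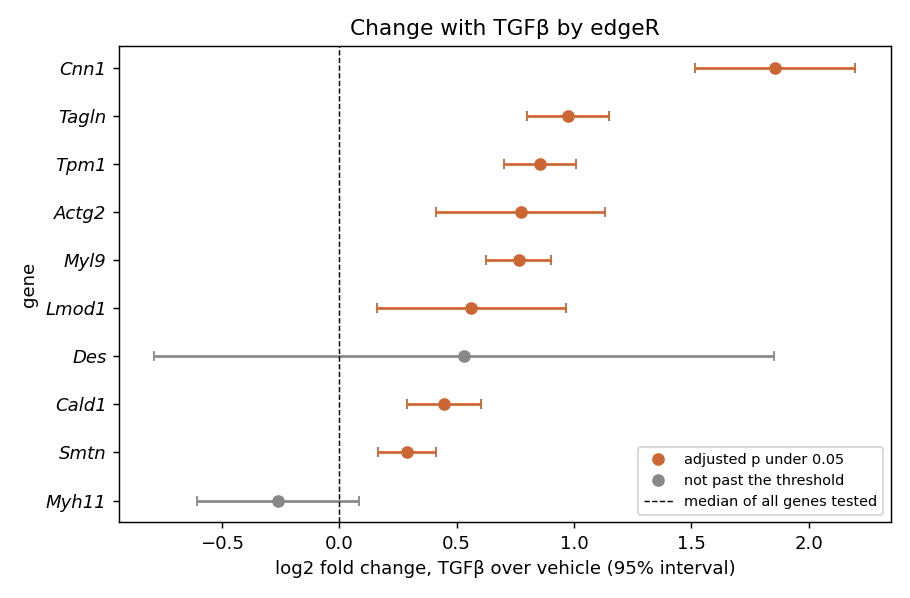
Log2 fold changes (TGFβ over vehicle) of the 10 members, with 95% intervals of the edgeR fit; orange genes passed the test, grey ones did not, and the dashed line marks the median of all genes tested. *Cnn1* lies highest at 1.86, 8 members lie above 0 with intervals that leave it out, and the intervals of *Myh11* and *Des* include 0.

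The same libraries were often the highest or the lowest of their group. Library D had the highest TGFβ level in 9 of the 10 members, all but *Myl9*, and E had the lowest in 7. With vehicle, C was highest in 6 and A in 4, and B was lowest in 7. On the log2 scale of CPM + 0.5, *Des* deviated from its group mean by 0.63 in A, -0.66 in B, 1.20 in D and -1.18 in E, and the other members stayed between -0.29 and 0.28. Deviations from the group means, over the 6 libraries and as a description only, ran closest together for *Actg2* with *Smtn* (Pearson r = 0.98) and for *Actg2* with *Des* (r = 0.97), and most against each other for *Tagln* with *Myh11* (r = -0.47). These points share their library and scaling.

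**Figure D3:**
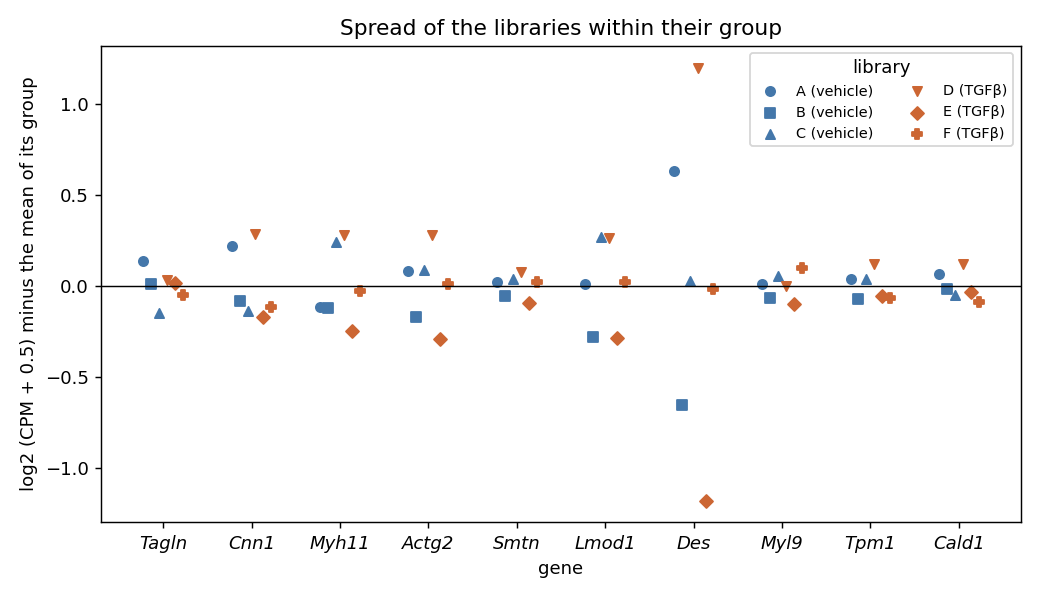
Deviation of each member from its group mean in each library, on the log2 scale of CPM + 0.5, with a marker for each of the 6 libraries. *Des* spreads from -1.18 in library E to 1.20 in library D, and the other members stay between -0.29 and 0.28.

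Summed over the 10 members, the level was 3268, 3032 and 2989 CPM with vehicle and 5386, 4944 and 4850.4 CPM with TGFβ. The sum rose 1.63-fold, from 3096 ± 150.2 to 5060.2 ± 286 CPM (SD, n = 3). The two-sided exact permutation p was 0.1, and 3 against 3 libraries cannot give a smaller one. *Cald1*, *Tagln* and *Tpm1* together made up most of this sum in every library. The share of *Tagln* went from 28.3% ± 1.64 to 34.1% ± 1.34, that of *Tpm1* from 19.3% ± 1.02 to 21.4% ± 0.41 and that of *Cnn1* from 0.343% ± 0.032 to 0.761% ± 0.094. The share of *Cald1* went from 43.3% ± 0.36 to 36.1% ± 0.73, that of *Smtn* from 2.94% ± 0.16 to 2.20% ± 0.11 and that of *Myh11* from 0.903% ± 0.167 to 0.458% ± 0.065. For these 6 genes the groups were fully apart (SD, n = 3, exact permutation p = 0.1 each). Levels, as opposed to shares, did not overlap in either direction for 53.3% of all genes tested. For *Actg2*, *Lmod1*, *Des* and *Myl9* the shares overlapped, with exact permutation p-values of 0.8, 0.6, 0.8 and 0.5.

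Levels of different genes were compared per length, as CPM per kilobase of the exons of each gene merged (RPKM). *Tagln* was the highest member in both groups, with 441 RPKM in vehicle and 866 RPKM in TGFβ libraries, beside 607 and 1237 RPKM for *Acta2*. *Cald1* (111 RPKM), *Myl9* (106 RPKM) and *Tpm1* (92.2 RPKM) followed with vehicle, and the ranges of *Cald1* and *Myl9* overlapped. With TGFβ the order was *Myl9* (179 RPKM), *Tpm1* (167 RPKM) and *Cald1* (152 RPKM), each overlapping its neighbour. *Smtn* stood between the groups of genes, with 20.8 and 25.4 RPKM. The other five were at 3.04 to 4.76 RPKM with vehicle, where neighbours overlapped. With TGFβ *Cnn1* came out of that low range at 14.1 RPKM (12.4 to 17.05), above *Actg2* at 8.14 RPKM (6.51 to 9.84), while *Des*, *Lmod1* and *Myh11* were at 4.61, 4.49 and 3.06 RPKM. The order of the abundant genes depended on the length used. Over the longest transcript, a choice made after the data were seen, vehicle levels were 280 for *Cald1*, 207 for *Tpm1* and 109 for *Myl9* (RPKM). With TGFβ the means over that length were 382 for *Cald1*, 375 for *Tpm1* and 185 for *Myl9* (RPKM). By these means that is the same order as with vehicle and the reverse of the TGFβ order over the merged exons. The TGFβ libraries of *Cald1* and *Tpm1* overlapped over that length as well, so the order of this pair is not settled.

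Most of these proteins have non-muscle or sister paralogs, and the ratio of counts within a library asks whether the muscle form changed more than its relative without any scaling between libraries. Of 8 ratios computed, 4 had groups fully apart (two-sided exact permutation p = 0.1, the smallest this design allowed, and 0.2 after Benjamini-Hochberg adjustment over the 8). Beside this, the levels of 53.3% of all genes tested did not overlap between the groups, in either direction. Such a share was not computed for ratios. *Cnn1* went from 1.43% to 4.10% of the summed counts of *Cnn2* and *Cnn3*, the calponins of non-muscle cells, a log2 difference of 1.52. *Tpm1* went from 66.7% to 109% of *Tpm4*, a log2 difference of 0.71, and *Myl9* from 15.7% to 21.4% of *Myl12a* and *Myl12b*, a log2 difference of 0.45. All these ratios are of counts not divided by gene length, so a percentage does not say which gene was more abundant. The merged exons of *Tpm1* span 6485 bases and those of *Tpm4* 2203 bases, so 109% of the counts does not place *Tpm1* above *Tpm4*. *Myh11* went the other way, from 1.47% to 0.929% of the non-muscle heavy chains *Myh9* and *Myh10*, a log2 difference of -0.66.

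Those denominators moved too. *Myh9* rose from 1658 ± 72.7 to 2209 ± 92.3 CPM (SD, n = 3, log2 fold change 0.41, edgeR adjusted p = 0.00102) and *Myh10* from 222 ± 16.7 to 267 ± 16.7 CPM (0.27, adjusted p = 0.0166 in the edgeR fit). *Cnn2* and *Cnn3* rose by 0.42 and 0.24, *Myl12a* rose by 0.44 and *Tpm4* by 0.14, all on the log2 scale, while *Myl12b* fell by 0.50 on the log2 scale. *Myl12a* and *Myl12b* are close copies, which can affect how reads are split between them.

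In the other 4 ratios the groups overlapped. *Tagln* against *Tagln2*, its widely expressed relative, gave log2 ratios of 1.51, 1.36 and 0.99 with vehicle and 1.53, 1.55 and 1.21 with TGFβ (difference 0.14, exact permutation p = 0.5, adjusted 0.571). *Tagln2* itself rose from 359 ± 32.8 to 640.1 ± 67.6 CPM (SD, n = 3, log2 fold change 0.84, edgeR adjusted p = 3.47e-04). *Actg2* was 0.556% of *Acta2* with vehicle and 0.460% with TGFβ (log2 difference -0.27, exact permutation p = 0.3, adjusted 0.4). *Lmod1* went from 7.10% to 10.6% of the tropomodulin *Tmod3* (log2 difference 0.57, exact permutation p = 0.2, adjusted 0.32), where *Tmod3* had a log2 fold change of -0.01 (edgeR adjusted p = 0.897). *Des* against vimentin (*Vim*) had a log2 difference of 0.54 (exact permutation p = 0.6, adjusted 0.6), and *Vim* fell by 0.24 on the log2 scale (edgeR adjusted p = 0.0135).

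**Figure D4:**
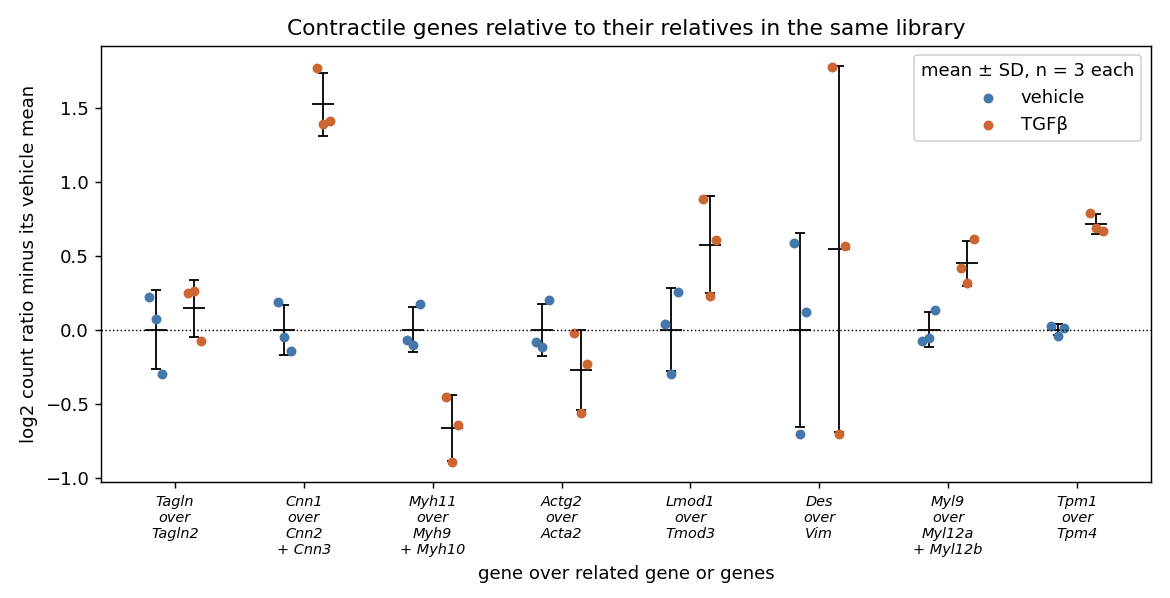
Log2 ratio of the counts of each member to those of its paralogs in every library, drawn as the difference from the vehicle mean of that ratio, with the mean and SD of each group in black; 0 is the vehicle mean. The TGFβ libraries lie above the vehicle libraries for *Cnn1*, *Myl9* and *Tpm1* and below them for *Myh11*, and the groups overlap for the other 4 ratios.

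The genes around the members moved in both directions, as did all genes tested, of which 20.5% were called higher and 20.1% lower. Of 24 other smooth muscle contractile genes, 10 were higher (41.7%), 6 were lower (25%) and 8 did not pass the test. Their median log2 fold change was 0.18, and the share called lower was near that of all genes. *Csrp2*, a LIM protein of smooth muscle, rose from 103 to 263 CPM (log2 fold change 1.35, SE 0.06), and palladin (*Palld*), an actin scaffold, rose from 116 to 233 CPM (1.01, SE 0.10). *Pdlim3*, a LIM protein of the α-actinin complex, fell from 174 to 78.9 CPM (-1.14, SE 0.09), and the integrin *Itga8* fell from 16.3 to 7.99 CPM (-1.03, SE 0.11). The edgeR adjusted p of these 4 genes lay between 7.81e-06 and 2.64e-04. Of the 22 paralogs tested among 28 listed, 16 were higher (72.7%) and 3 lower (13.6%), with a median of 0.38. *Acta2* and *Tpm2* are in both of these lists and were called higher, so they count in both. *Mylk*, called lower, counts among the contractile genes and again in light chain phosphorylation below. *Kcnmb1*, called higher, counts among the contractile genes and the vascular markers, and *Acta1*, called higher, among the paralogs and the skeletal muscle markers. *Smtnl2*, a relative of smoothelin, rose from 15.5 to 28.1 CPM (log2 fold change 0.86, edgeR adjusted p = 7.65e-04).

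The enzymes that set the phosphorylation of the light chain were split, with 5 of 14 higher, 4 lower and a median of 0.07. These are 35.7% and 28.6%, beside 20.5% and 20.1% of all genes tested. Myosin light chain kinase, *Mylk*, had 42.3, 36.4 and 48.7 CPM with vehicle and 21.6, 16.8 and 21.1 CPM with TGFβ. It fell by 1.10 on the log2 scale (SE 0.13, edgeR adjusted p = 4.53e-04). The groups did not overlap, while its substrate *Myl9* rose. Of the myosin phosphatase targeting subunits, *Ppp1r12a* rose by 0.18, while *Ppp1r12b* and *Ppp1r12c* were lower, with log2 fold changes of -0.48 and -0.13. The cGMP-dependent kinase *Prkg1* fell by 0.30 (all on the log2 scale). The call of *Prkg1* was lost without A, B or C in turn, and the count of 9 genes called in this list became 5 without library B and 5 without library C.

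Of *Srf* and its 3 cofactors, *Srf* passed the test, beside 40.7% of all genes called in either direction. It rose from 43.6 ± 2.17 to 55.2 ± 3.57 CPM (SD, n = 3, log2 fold change 0.34, edgeR adjusted p = 0.00332). *Myocd*, which encodes myocardin, was scarce, with 0.490 ± 0.147 and 0.836 ± 0.068 CPM (SD, n = 3) and 10 to 25 counts per library (log2 fold change 0.76, edgeR adjusted p = 0.0521). *Mkl1* and *Mkl2*, the MRTF genes, had log2 fold changes of 0.11 and -0.08 (edgeR adjusted p = 0.0870 and 0.390). Without library A, *Myocd* and *Mkl1* passed as well, with edgeR adjusted p-values of 0.0377 and 0.0390.

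Markers of other cells that make contractile proteins were measured beside the members. The 10 fibroblast markers summed to 67288 to 77899 CPM over the libraries, led by *Col1a1*. Its mean was 19992 CPM in the vehicle group and 23484 CPM in the TGFβ group, and the groups did not overlap. Its log2 fold change of 0.23 did not pass the test (edgeR adjusted p = 0.0550). With edgeR, 7 of the 10 were lower, 0 were higher and 3 did not pass, beside 20.1% of all genes tested called lower. DESeq2 and limma-voom each gave 7 lower and 1 higher. A list of 13 vascular smooth muscle and pericyte markers held no member. Of its 11 tested genes, 2 were higher and 3 lower, near the 20.5% and 20.1% of all genes tested. The list summed to 336 to 428 CPM with vehicle and 223 to 303 CPM with TGFβ. That fall of the sum came from *Notch3*: without it the other markers summed to 145, 146 and 224 CPM with vehicle and 178, 159.9 and 254 CPM with TGFβ, overlapping groups with the higher mean in the TGFβ libraries. *Notch3*, the most abundant gene of this list, fell from 207 ± 16.7 to 57.3 ± 7.58 CPM (SD, n = 3, log2 fold change -1.85, edgeR adjusted p = 1.58e-05). *Cspg4*, which is part of the sum without *Notch3*, rose from 19.5 ± 3.21 to 53.3 ± 12.02 CPM (SD, n = 3, log2 fold change 1.45, edgeR adjusted p = 6.14e-04). The other genes of the list that passed were *Kcnmb1*, higher (log2 fold change 1.08), and *Mustn1* and *Sncg*, lower (-0.61 and -1.53). *Rergl* had no row.

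Of 14 cardiomyocyte markers, 13 were under 1 CPM or had no row (*Myh7*); *Tnnt2* was the exception at 46.7 and 34.0 CPM with vehicle and TGFβ. In that list 0 of 3 genes tested passed with edgeR, and *Tnnt2* had an unadjusted p under 0.05 and passed with DESeq2. All 7 skeletal muscle markers were under 1 CPM on average over the 6 libraries, and *Myod1*, *Myf5* and *Pax7* had no row; they summed to 0.972 to 1.51 CPM with vehicle and 2.08 to 2.71 CPM with TGFβ, and without *Acta1* to 0.838 to 1.19 and 0.895 to 1.13 CPM. Of the skeletal muscle list, *Acta1* was called higher with TGFβ. Endothelial markers summed to 462 to 716 CPM with vehicle and 423 to 586 CPM with TGFβ, led by *Cdh5*. Leukocyte markers summed to 252 to 363 and 217 to 323 CPM, led by *Lyz2*. *Cd14* was lower with TGFβ, a call lost in 5 of 12 alternatives. No other gene of the endothelial and leukocyte lists passed the test. In the endothelial list, 0 of 8 genes passed with edgeR, DESeq2 or limma-voom, and 0 had an unadjusted p under 0.05. The part of these cells in the members' levels was not tested.

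The mesothelial or epithelial markers had a spread over libraries that resembled that of *Des*. Their sum was 62.3, 23.1 and 27.5 CPM with vehicle and 34.5, 14.97 and 17.2 CPM with TGFβ, led by *Upk3b*. With edgeR 0 of 4 genes tested passed, and *Upk3b* had an unadjusted p under 0.05, lower with TGFβ. *Wt1*, picked from this list after its values were seen, read 6.76, 0.978 and 2.78 CPM with vehicle and 7.27, 1.54 and 2.49 CPM with TGFβ. Libraries A and D were the highest of their groups and B and E the lowest for both *Wt1* and *Des*. Whether such cells had a part in the spread of *Des* was not tested.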

How the data were processed

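RNA-seq was analysed in 6 libraries of cultured mouse fibroblasts (3 vehicle, 3 TGFβ). The authors made stranded mRNA libraries, mapped reads to mm10 and deposited raw counts of reads per gene, with no normalization; the aligner and the counting tool were not given in the sources used here. The table also holds the authors' mean and DESeq2 fold changes and p-values, which were not used. Its column headers name the group but no replicate.

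edgeR 4.0.16 (R 4.3.3) was run on the counts of all genes with TMM factors, filterByExpr, the quasi-likelihood test and Benjamini-Hochberg adjustment over 14334 genes (threshold 0.05). The steps were tested on simulated data. Levels are CPM over TMM-scaled library sizes. Ratios, sums and shares were compared with two-sided exact permutation tests. Gene models were from GENCODE M21 (GRCm38), which held 25086 of the 25140 identifiers. Pairs of libraries of the same group differed by more than sampling noise (chi-square per gene 7.41 to 25.0), so none was treated as a duplicate; this does not show that they came from separate cultures.

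Alternatives were DESeq2 1.42.0 and limma-voom (limma 3.58.1), other scalings, filters and thresholds, and leaving out each library. The members and gene lists were chosen with earlier results of these data known. Genes named are the members, *Acta2*, the paralogs in ratios, *Srf* and its cofactors, up to 3 genes with the largest called change per related list and direction (mean of at least 5 CPM), the most abundant gene of each marker list and the 5 genes most like the members. *Wt1*, *Cspg4*, *Cd14*, *Acta1*, *Kcnmb1*, *Mustn1*, *Sncg*, *Ppp1r12c* and *Tpm2* are named beyond this rule, after their values were seen. Some genes that this rule would name are not reported here.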

Additional observations from a re-analysis of the deposited data

How the results depend on the processing

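No paired analysis was possible because the columns of the table carry no replicate number, although the labels number the samples of both groups, so the fit with a replicate block was not run. Some spreads looked alike in both groups: endothelial markers summed to 462, 528 and 716 CPM in A, B and C and to 423, 474 and 586 CPM in D, E and F. Whether a block would change calls, such as that of *Lmod1*, or genes left uncalled was not tested. Under 12 alternatives per gene (2 scalings, DESeq2, limma-voom, 2 filters and 6 fits without a library), each of the members *Tagln*, *Cnn1*, *Actg2*, *Smtn*, *Myl9*, *Tpm1* and *Cald1* stayed higher and called, *Myh11* stayed uncalled at log2 fold changes of -0.41 to -0.13, and *Des* stayed uncalled at -0.29 (without library D) to 0.94. *Lmod1* lost its call without A, B, D or F. Among the paralogs, *Tpm4* lost its call under upper quartile scaling and without any library, *Myh10* without B or D and *Vim* without B. The cause was not tested.

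Leaving out a library gave 7 to 8 members called, 4489 to 5481 genes in all (5828 with all libraries), 15 to 18 paralogs, 15 to 17 other contractile genes, 5 to 9 genes of light chain phosphorylation and 1 to 3 of *Srf* and its cofactors (3 without A). A threshold of 0.01 left 3595 genes in all and 4 of light chain phosphorylation. At the usual threshold of 0.05, a log2 fold change beyond 1 in size left 971 genes by edgeR, with 1 member (*Cnn1*) and 7 other contractile genes. It also left 2 paralogs, 1 gene of light chain phosphorylation (*Mylk*) and 0 of *Srf* and its cofactors. Without that limit on the fold change, limma-voom at 0.05 called 2 of *Srf* and its cofactors. The log2 ratio of *Tagln* to *Tagln2* differed by -0.0036 (without C) to 0.26 without a library, and that of *Des* to *Vim* by -0.068 (without D) to 1.17. The log2 change of the members' sum, 0.71, was 0.59 without *Tagln* and 0.66 to 0.75 without a library.

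Chosen after seeing the data, the log2 change of the summed vascular smooth muscle and pericyte markers, -0.58, was 0.20 without *Notch3*, and that of the skeletal muscle markers, 1.07, was 0.09 without *Acta1*. The vascular sum without *Notch3* still held *Cspg4*, which rose. Another scaling moved the median log2 fold change of all genes by at most 0.021 in size. With 3 libraries a group, the smallest permutation p was 0.1.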

Other observations

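Outside the lists, the 5 genes whose levels ran closest to the mean standardized profile of the 10 members, out of 10275 candidates whose mean level was 5 CPM or more, were *Fam8a1* (Pearson r = 0.998 over 6 libraries), *Cnst* (0.997), *Tll1* (0.996), *Nt5dc3* (0.994) and *Snx24* (0.992). These points share their libraries and the treatment, and the values are a description. *Tll1*, which encodes a tolloid-like metalloproteinase, was at 3.43, 1.58 and 4.26 CPM with vehicle and 34.8, 8.24 and 14.3 CPM with TGFβ. Its log2 fold change was 2.62 (SE 0.57, edgeR adjusted p = 0.00818), and library D was the highest and E the lowest of its group, as for most members. The other four had small log2 fold changes, 0.20 for *Fam8a1*, 0.15 for *Cnst*, 0.22 for *Nt5dc3* and 0.24 for *Snx24*; *Cnst* did not pass the test (edgeR adjusted p = 0.0666), and the calls of *Fam8a1*, *Nt5dc3* and *Snx24* were lost in 2, 4 and 5 of 12 alternatives.

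*Acta1*, the skeletal muscle α-actin and a paralog of *Actg2*, was scarce but higher with TGFβ, at 0.314, 0.135 and 0.134 CPM with vehicle and 1.57, 1.18 and 1.47 CPM with TGFβ (log2 fold change 2.81, SE 0.33, edgeR adjusted p = 4.53e-04). It was singled out after its values were seen.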
